A study of Mus musculus with 10 samples.

Results

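Narrow RBPJ peaks inside introns, at some distance from any promoter, were examined in mouse brain pericytes. The 1040 peaks were chosen by a rule on position and size: a width under 1500 bp, a centre more than 5 kb and at most 50 kb from the start site (TSS) of the nearest protein-coding transcript, a centre inside a protein-coding gene but outside its coding and untranslated exons, and no TSS of a noncoding gene within 1 kb. They made up 9.37% of the 11094 peaks in the list. The width limit left 8505 peaks, the distance limits 2348, the gene bodies 1183, the exons 1082 and the noncoding TSSs 1040. They are called intronic peaks here, and the gene around each centre is called its host.

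Chromatin immunoprecipitation with an anti-RBPJ antibody was followed by sequencing (ChIP-seq) in RD1 cells, labelled as brain pericytes, which the methods of the study describe as cultured primary cells and which received no treatment. They were grown in pericyte medium on dishes coated with collagen I, so the peaks are those of isolated pericytes in culture, away from the vessel wall and its endothelium. The series holds 10 samples in 5 groups with 2 replicates each, and input chromatin, histone H3, H3K4me1 and H3K4me3 samples were not analysed here. Both RBPJ replicates carried the same list of intervals, with no height or score, so that no spread between replicates could be calculated, and all intervals and p-values cover counting error within a single list.

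RBPJ is the DNA-binding factor of the Notch pathway. It recruits corepressors when Notch is silent and, after receptor cleavage, joins the Notch intracellular domain and a Mastermind coactivator on the same sites. Introns of long genes often hold enhancers, which act on the promoter of their host or on a promoter farther away, and a peak inside a gene therefore does not name its target.

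The RBPJ core motif is TGGGAA, and GTGGGAA is its longer, more selective form. To show the sequences at the peak centres, 30 bases around GTGGGAA are given for 10 listed host genes with that motif in the 200 bp around the centre of an intronic peak (genes from the lists of pathway and cell type genes described further on). Other listed hosts with the motif are not shown. The Timp3 peak also lies in Syn3, and in the Mrtfa window the G of GTGGGAA lies 1 bp outside the interval. They were read from GRCm38.p6, run 5′ to 3′ on the strand of the motif, and carry GTGGGAA in capitals.
Notch1, chr2:26494449-26494478, minus strand: atggaaggtgcGTGGGAAggggaggaagca
Ltbp1, chr17:75277667-75277696, plus strand: ttgtgagtcatGTGGGAActaggcattacc
Nid1, chr13:13461666-13461695, minus strand: gatgggggagcGTGGGAAaccgctcacttt
Timp3, chr10:86339919-86339948, plus strand: agtgggtggagGTGGGAAgccagtagagta
Mrtfa, chr15:81087121-81087150, plus strand: tgagatccactGTGGGAAtgagaagtcaag
Runx1, chr16:92732247-92732276, plus strand: gctagctaagcGTGGGAAttcagatccctg
Tead1, chr7:112696814-112696843, minus strand: gcacatggctgGTGGGAActggttgagaaa
Gli2, chr1:119004452-119004481, minus strand: ctgctgcctctGTGGGAAgtggcctccggc
Sema3a, chr5:13387847-13387876, minus strand: tttaagtaggtGTGGGAAaaatgtgtctcc
Per2, chr1:91436568-91436597, plus strand: gtagctgggaaGTGGGAAgagaaagaaaag

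In 4 of these 10 windows the motif pointed along the host gene, and in 6 it pointed against it. The Ltbp1 window held an AP-1 motif (TGANTCA) beside the RBPJ motif, the Mrtfa window a TEAD motif (GGAATG) that runs into it, and the Per2 window another TGGGAA. Soft-masked bases, which mark repeats, were absent from 6 windows and filled the Per2 window.

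Among all intronic peaks, 441 of 1040 (42.4%, 95% exact binomial interval 39.4 to 45.5%) held TGGGAA on either strand within 100 bp of the centre. These 200 bp reach past the ends of 93 narrower intervals, and counting the part inside the interval only gave 440 peaks (42.3%). In the whole list of 11094 peaks the share was 25.8%. The same measure in windows 5 kb to the left of each intronic peak gave 15.9%. The motif was present at the peak but not in its neighbouring window for 369 peaks, and the opposite held for 93 (two-sided exact McNemar test, p = 6.00e-40). GTGGGAA was found in 16.0% of the peaks and in 3.65% of the windows, a 4.37-fold ratio (adjusted p = 2.41e-21, exact McNemar test). The variant TGAGAA, a weaker RBPJ sequence, was found in 22% against 17.8% (adjusted p = 0.0492, exact McNemar test), a difference of 4.23 points. It was 6.92 points against windows on the right (adjusted p = 1.70e-04, exact McNemar test), 7.60 points at 2 kb (2.63e-05), and 3.38 points over the 710 pairs without soft-masked centres, which did not pass (0.275). A single core was present in 350 of the 441 peaks and several in 91, and over the whole interval 64.1% of the intronic peaks held at least 1.

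Narrow peaks at other positions gave a reference for these shares. Narrow intergenic peaks at the same distances held TGGGAA in 42.5% of 1048 cases, and intronic minus intergenic peaks gave -0.058 percentage points (95% interval -4.29 to 4.17, two-sided Fisher's exact test, p = 1). Narrow peaks beyond 50 kb held it in 39.8% of 1279 cases, and the difference of 2.61 points in the same direction of subtraction (-1.41 to 6.63) did not pass either (Fisher's exact test, p = 0.218). Both intervals leave room for a difference of some points in either direction. Narrow promoter peaks, centred within 1 kb of a TSS, held it in 16.6% of 4259 cases, 25.8 points below the intronic peaks (22.6 to 29, Fisher's exact test, p = 1.74e-65), and their own windows 5 kb away held it in 17%.

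Base composition and width moved with this last difference. The median width was 377 bp for intronic and 675 bp for narrow promoter peaks, and the part of width was not tested. The central 200 bp had a GC content of 50.5% ± 6.55 (SD over 1040 intronic peaks) and 66.5% ± 8.97 (SD over 4259 promoter peaks), with a median of 3 and 19 CpG dinucleotides. Among windows of 45 to 55% GC only, a limit chosen after seeing the data, the difference to promoter peaks was 12.5 points (Fisher's exact test, p = 5.83e-05). The windows 5 kb from intronic peaks had a GC content of 46.1% ± 7.63 (SD), and with both windows of a pair limited to the same GC range, also after seeing the data, the difference in TGGGAA was 25.8 points over 299 pairs (exact McNemar test, p = 1.66e-11). The part of base composition in these differences was not tested beyond this.

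**Figure D1:**
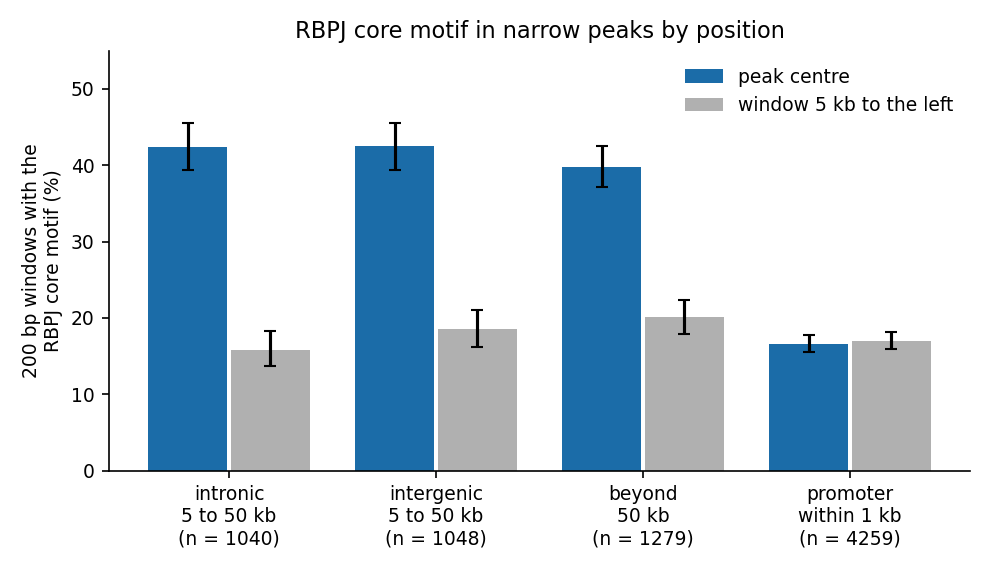
Share of 200 bp windows with the RBPJ core motif (%) at the centres of narrow peaks (blue) and 5 kb to the left (grey) for the 4 positions, with 95% exact binomial intervals as bars. Intronic peaks (42.4%), intergenic peaks (42.5%) and peaks beyond 50 kb (39.8%) stand well above their neighbouring windows, and promoter peaks (16.6%) do not.

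The core sites gathered at the middle of the intronic peaks. Their density was 3.21 sites per kb per peak within 50 bp of the centre, 2.15 from 50 to 100 bp and 1.70 from 100 to 150 bp, and between 500 and 1000 bp it averaged 1.11 (0.923 to 1.21 over the 50 bp bins). Around narrow promoter peaks the density was 0.970 in the innermost bin and lay between 0.831 and 1.08 elsewhere. AP-1 sites showed the same shape in intronic peaks, with 1.46 sites per kb in the innermost bin and 0.284 on average between 500 and 1000 bp. For TEAD sites these values were 1.43 and 0.557, and for the E-box CAGCTG 1.13 and 0.521.

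**Figure D2:**
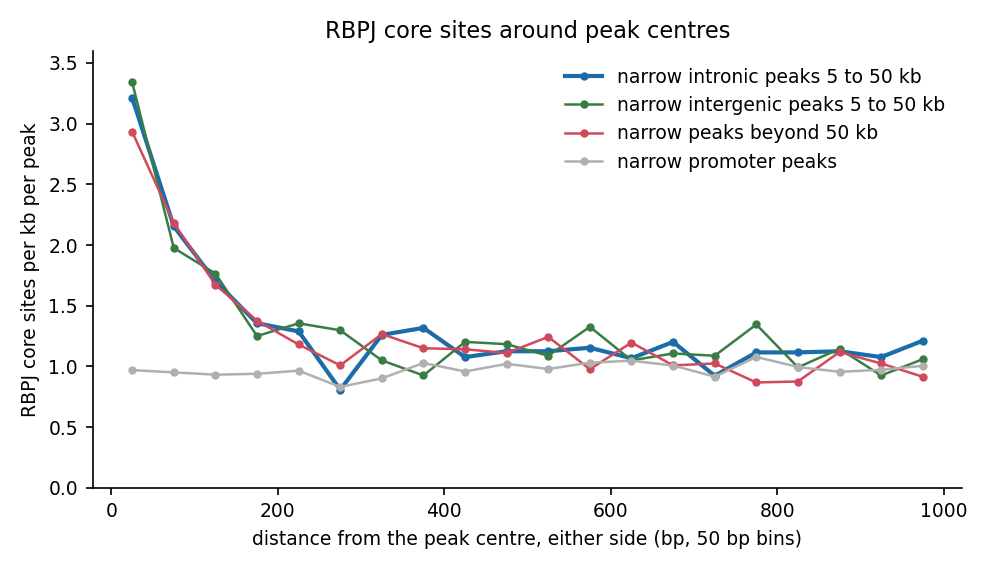
RBPJ core sites per kb per peak against the distance from the peak centre (bp, both sides pooled in 50 bp bins) for the 4 kinds of narrow peak. The 3 distal kinds rise from about 1 to about 3 at the centre, with 3.21 for intronic peaks, and the promoter line stays near 1.

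The order of the letters was varied next. TGGGAA was 2.48 times as frequent in intronic peaks as in the windows on both sides, whereas the other 59 hexamers made of the same letters had a median ratio of 0.991 and a highest ratio of 2.15, that of GGAATG, the TEAD motif. Over all 2080 hexamers TGGGAA showed the largest gain in percentage points (42.4% against 17.1%). GAGTCA and GACTCA, both parts of AP-1 sites, followed with 27.3% against 10.8% and 24.7% against 10.6%. By ratio TGGGAA stood at rank 14.

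Motifs of other factors were then sought with a panel of 21 sequences on either strand, each compared with the windows 5 kb to the left and adjusted over the panel by the Benjamini-Hochberg method. In addition to the 3 RBPJ sequences, 5 were more frequent in the intronic peaks, and 0 of 21 were less frequent. The AP-1 motif TGANTCA, bound by Fos and Jun dimers that open enhancers in many cell types, was found in 22.7% of peaks (20.2 to 25.4%) against 7.21% (exact McNemar test, adjusted p = 2.41e-21). The TEAD motif GGAATG, read by the DNA-binding partners of YAP and TAZ, was found in 21.3% against 10.1% (exact McNemar test, adjusted p = 1.34e-11). Its first letters, GGAA, can be the end of an RBPJ core, and in a check chosen after seeing the data, without the TEAD sites that overlap TGGGAA, the difference was 9.42 points (exact McNemar test, p = 4.36e-10).

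The E-box CAGCTG of bHLH factors was found in 18.8% against 10.4% (exact McNemar test, adjusted p = 3.28e-07), and the KLF/SP box GGGCGG in 7.40% against 3.56% (adjusted p = 6.03e-04). Both sequences are rich in G and C, and GC content was 50.5% at the peak centres and 46.1% in the windows. The comparison limited by GC content was made for TGGGAA only, so the part of base composition was not tested for the other panel motifs. The ETS sequence AGGAAGT was close to the threshold, with 6.63% against 4.23% (exact McNemar test, adjusted p = 0.0492), a difference of 2.40 points. It did not pass with the windows to the right (1.73 points, adjusted p = 0.240, exact McNemar test), at 2 kb (1.06 points, 0.562), in the central 100 bp (0.865 points, 0.482) and without soft-masked centres (1.97 points, 0.267), and it passed with 1 member per host gene (3.50 points, 0.00562). The RUNX sequence TGTGGT was found in 17.2% against 15.1% (exact McNemar test, adjusted p = 0.344). The palindromic SMAD sequence GTCTAGAC was present in 2 peaks and 2 windows, too few to compare, and the full NFI palindrome in 0 of 1040. The ETS sequence CCGGAA and the CTCF sequence passed before adjustment only (exact McNemar test, adjusted p = 0.0833 and 0.103).

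**Figure D3:**
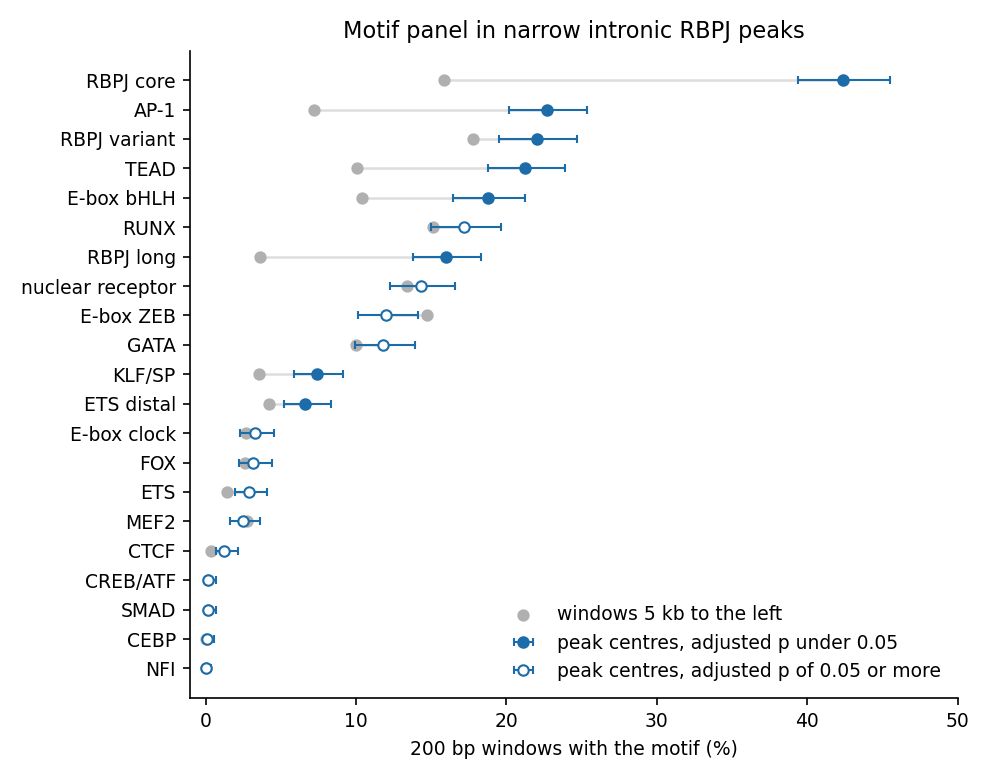
Share of 200 bp windows with each of 21 motifs (%) at the centres of the 1040 intronic peaks (blue, with 95% exact binomial intervals) and 5 kb to the left (grey). Filled circles mark an adjusted p under 0.05 in exact McNemar tests, and the widest gaps are those of the RBPJ core (42.4% against 15.9%) and AP-1 (22.7% against 7.21%).

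Of the peaks with an AP-1 motif 61.4% had no RBPJ core, beside 57.6% of all intronic peaks. Both were present in 91 peaks, the core alone in 350, AP-1 alone in 145 and neither in 454. AP-1 was found in 20.6% of peaks with a core and in 24.2% of those without (adjusted p = 0.539, Fisher's exact test over 18 motifs). For TEAD the shares were 25.6% and 18% (Fisher's exact test, adjusted p = 0.0636), where 37 peaks had TEAD and core sites that overlap. None of the 18 motifs passed, and TEAD and CTCF did so before adjustment. Where core and AP-1 occurred together, the shortest gap between them had a median of 39 bp (quartiles 21 and 82.5 bp), and 14 of the 91 peaks had at most 10 bp between the sites. In 379 peaks (36.4%) none of the core, AP-1 and TEAD motifs was present.

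The other motifs were compared with the remaining narrow peaks in a family of 21 Fisher's exact tests (7 motifs and 3 kinds of peak), chosen after the panel was seen. All 7 had passed the threshold in the panel on these same intronic peaks, which favours high intronic shares, so the p-values are descriptive. AP-1 occurred in 20.9% of intergenic peaks and 23.8% of peaks beyond 50 kb, and neither difference from the 22.7% of intronic peaks passed (exact test, adjusted p = 0.510 and 0.684). TEAD stood at 17.5% and 19.9% (exact test, adjusted p = 0.0716 and 0.572). Of the 14 tests against both other distal kinds, that of CAGCTG beyond 50 kb passed, with 18.8% against 14.5% (difference 4.29 points, 1.25 to 7.37, exact test, adjusted p = 0.0151). This adjustment covers all 21 tests, including the promoter tests with far smaller p-values, which lowers the adjusted value. The unadjusted p was 0.00573 (exact test), and an adjustment over the 14 tests alone was not made. The windows 5 kb away from intronic peaks and from peaks beyond 50 kb held CAGCTG in 10.4% and 8.13%. The ratios of peaks to windows were thus 1.81 and 1.78. GC content was 50.5% and 48.5%, whose part in the difference was not tested. In intergenic peaks the share of CAGCTG was 15.9% (exact test, adjusted p = 0.179). Promoter peaks held fewer AP-1 (2.58%) and TEAD (6.76%) motifs and many more GGGCGG boxes (57.9% against 7.40%), with adjusted p-values of 1.49e-92, 7.71e-38 and 2.18e-215.

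Wider intronic peaks held the core less often at their centres. Of 217 peaks under 250 bp, 53.9% held TGGGAA at the centre (47.0 to 60.7%). The share was 46.8% of 491 peaks from 250 bp, 31.0% of 239 peaks from 500 bp and 21.5% of 93 peaks from 1000 bp (13.7 to 31.2%). Windows 5 kb to the left held it in 13.8%, 14.9%, 18.4% and 19.4%, so that the widest class was within counting error of its surroundings. GTGGGAA fell from 23.0% to 4.30% and AP-1 from 27.2% to 9.68% from the narrowest to the widest class. The centre of a merged interval need not be the bound site, and the part of this in the trend was not tested.

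**Figure D4:**
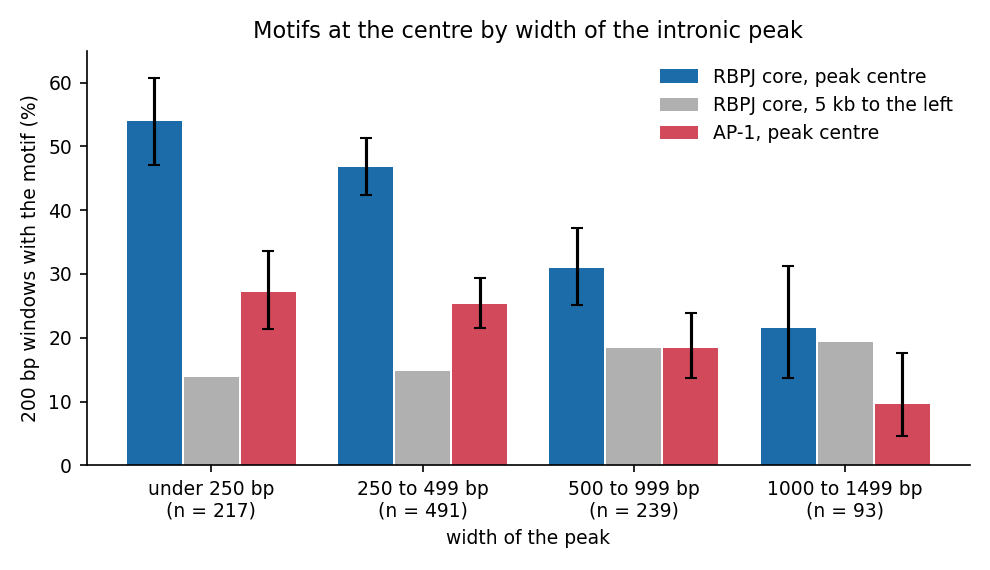
Share of central 200 bp windows with the RBPJ core (blue) or AP-1 motif (red) and of windows 5 kb to the left with the core (grey), in %, for 4 width classes of the intronic peaks, with 95% exact binomial intervals at the centres. The core share steps down from 53.9% under 250 bp to 21.5% from 1000 bp, where it meets the grey bar of 19.4%.

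Position within the host gene is described without a test, since position chose the peaks. Widths ran from 114 to 1498 bp with a median of 377 bp (quartiles 265 and 557 bp), and distances to the TSS from 5009 to 49998 bp with a median of 17150 bp (quartiles 9860 and 27682 bp). The peaks nearest to the limits, inside and outside, had widths of 1498 bp in Anp32a and 1486 bp in Dnah8 against 1503 bp in Lrrfip2 and 1505 bp in Sorl1, and distances of 5009 bp in Rxra against 4990 bp in Hsd17b12, and 49998 bp in 2010111I01Rik against 50293 bp in Plxdc1. The nearest TSS belonged to the host in 888 peaks (85.4%), with the peak downstream of it in 726 and upstream, before an alternative start, in 162. For the remaining peaks another gene's TSS was closer.

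Taking the transcript with the longest coding sequence in each host, 327 peaks (31.4%, 28.6 to 34.4%) lay in the first intron, 149 in the second, 478 in the third or a later one, and 86 outside the introns of that transcript. Of the 462 Mb of intron that could hold such a peak, 25.1% was first intron. Centres were a median of 4054.5 bp from the nearest coding or untranslated exon (quartiles 1110.75 and 9742.5 bp), 84 intervals reached into such an exon, and 47 centres lay in an exon annotated without coding or untranslated sequence, as in noncoding transcripts. The density per Mb of this intron was 2.56 from 5 to 10 kb, 2.35 from 10 to 20 kb, 2.20 from 20 to 30 kb, 1.90 from 30 to 40 kb and 1.89 from 40 to 50 kb. Chromosomes 4, 7 and X held 0.444, 0.262 and 0.566 peaks per Mb, chromosome Y 0 peaks, and the other 17 autosomes 1.18 to 4.11.

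The core share did not follow the distance from the TSS in steps, with 44.2%, 42.9%, 43.6%, 35.9% and 41.7% in the same 5 distance classes and intervals that overlap throughout. Repeats were sparse at the centres: 9.90% of them (8.16 to 11.9%) were soft-masked, against 24.6% of the windows 5 kb away and 29.8% of the intron that could hold such a peak. The study's alignment limited reads with many matches, and its peaks were filtered against blacklisted regions. The part of this in the low share was not tested. No preferred direction of the core motif was detected, with an interval that leaves room for a preference of some points. In the central windows 282 sites pointed along the host gene and 263 against it, or 51.7% (47.5 to 56.0%, two-sided exact binomial test against 50%, p = 0.441), and for GTGGGAA the numbers were 80 and 84 (p = 0.815).

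At paired RBPJ sites 2 complexes of RBPJ and the Notch intracellular domain can face each other. Head-to-head pairs of TGGGAA or TGAGAA with 11 to 21 bp between them were counted in the whole intervals. They are matches of sequence only, and binding of such complexes was not measured. Of 28 such pairs, 10 had a gap of 14 bp, in 10 different peaks, and each other gap had 1 to 3. The share at 14 bp was thus 35.7% in intronic peaks (18.6 to 55.9%), beside 19 of 46 pairs (41.3%) in intergenic peaks, 28 of 54 (51.9%) beyond 50 kb and 7 of 38 (18.4%) in promoter peaks. The 5 pairs made of TGGGAA at both ends are shown with both sites in capitals, on the plus strand of GRCm38.p6.
Nt5m, chr11:59880182-59880207: TGGGAAgtctcagcctgttgTTCCCA
Ext1, chr15:53334004-53334029: TGGGAAagttcccagccatgTTCCCA
Vdr, chr15:97871416-97871441: TGGGAAagatggagtcttctTTCCCA
Ptk7, chr17:46589847-46589872: TGGGAAtgacagaaggcattTTCCCA
Sept11, chr5:93131793-93131818: TGGGAActgagggcaggcagTTCCCA

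The 14 letters between the sites were different in each pair. These pairs lay 6, -3, -74, -13 and 10 bp from the centres of their peaks, which were 354, 254, 467, 190 and 193 bp wide. Vdr encodes the vitamin D receptor, Ext1 a polymerase of heparan sulfate chains, and Ptk7 a receptor of planar cell polarity. Nt5m is a mitochondrial nucleotidase, and Sept11 a septin of the cytoskeleton.

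The 1040 peaks lay in 884 host genes, which were 4.03% of 21938 protein-coding genes, or, counting the genes with at least 5 kb of intron that could hold such a peak, 7.34% of them. A single peak was found in 744 hosts, 2 in 109, 3 in 19 and 4 or more in 12, and 30 peaks had several hosts. Gm20388 held 9, but its gene model spans 4434.88 kb and runs across many other genes. Cuedc1 and Kalrn followed with 5 each. Kalrn had 1 peak of 226 bp with 3 cores at its centre, 1 with 2 cores outside the central window and 3 without any. Bcl2l1 (the antiapoptotic Bcl-xL), Bri3 and Crim1 (a transmembrane binder of BMPs) held 4 each and were the first by alphabet of 9 hosts with that number. Of the Bri3 peaks, 2 also lay in Baiap2l1. All 4 peaks of Bcl2l1 lay in the same intron, and none had a core at its centre, while Crim1 had a core at the centre of 2 of 4.

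The most cores in an interval were 7, in a peak of 1212 bp in Chd9, a chromatin remodeller, of which 0 lay in the central window. Gtf2a1l, Zbtb7c and 3110082I17Rik had peaks with 5 cores each, of which 3 lay at the centre in Gtf2a1l. Neighbouring intronic peaks on a chromosome were a median of 811 kb apart, and 58 of 1020 neighbouring pairs lay within 10 kb.

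Host genes also carried RBPJ at their promoters more often than other genes. A peak was centred within 1 kb of a TSS in 439 of 884 hosts (49.7%) and in 4477 of 14145 genes that could have hosted an intronic peak but did not (31.7%). Long genes have more intron, so classes of intron length were set side by side, while the number of start sites was not taken into account. With under 5 kb of such intron the shares were 42.1% of 19 hosts and 25.5%, with 5 to 20 kb 46.7% and 30.8%, with 20 to 50 kb 49.4% and 34.5%, and above 50 kb 50.9% and 37.1%. No test was made, since both counts come from the same list.

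Genes of pathways and cell functions linked to pericytes were then searched for intronic peaks. Of 345 genes in 8 lists, 50 (14.5%) held at least 1, beside 4.03% of all protein-coding genes, and these 50 genes held 61 peaks, of which 28 (45.9%) had a core at the centre, beside 42.4% of all intronic peaks. The lists were chosen with earlier results of these data known, and many of their genes are long, so the shares are descriptive. Activity of the listed genes in pericytes was not measured here. Among genes with at least 5 kb of suitable intron the shares ran from 8.70% (pericyte and vessel signals) to 28.1% (TGF-beta and BMP pathway), beside 7.34% of all such genes.

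**Figure D5:**
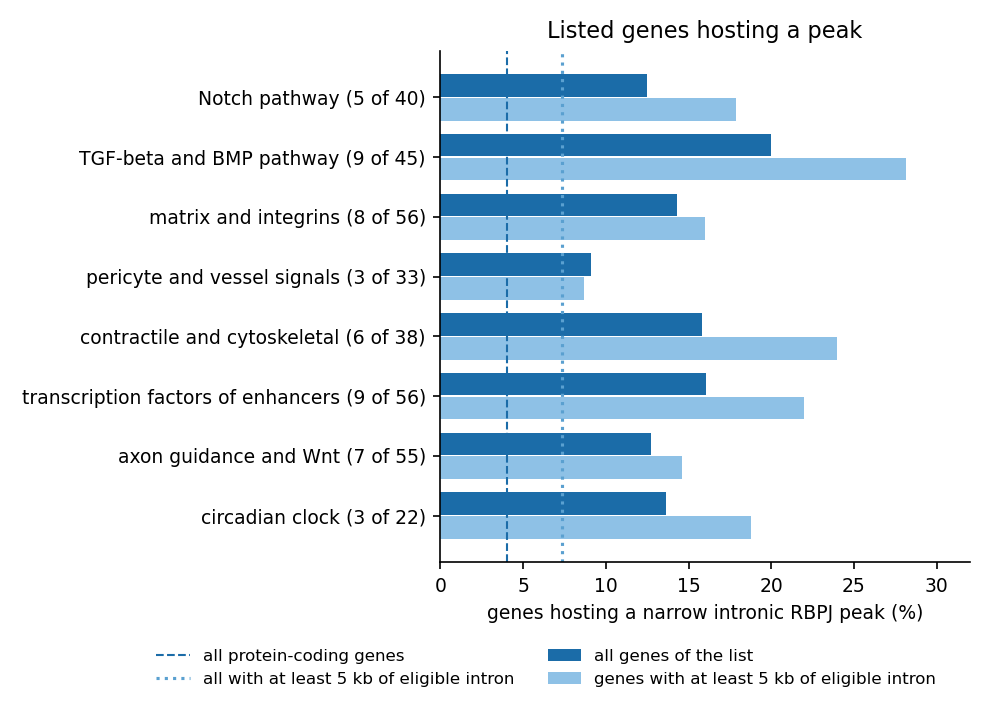
Share of genes in 8 lists that held an intronic RBPJ peak (%), for all genes of a list (dark) and for those with at least 5 kb of intron that could hold one (light), with the shares over all protein-coding genes (4.03%, dashed) and over all such long genes (7.34%, dotted). The TGF-beta and BMP list stands highest (9 of 45) and the list of pericyte and vessel signals lowest (3 of 33).

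Of 40 Notch pathway genes, 5 held 6 intronic peaks, and 4 of these peaks had a core at the centre. Notch1, a receptor of the pathway, had a peak of 449 bp (chr2:26494310-26494758) in its second intron, 9288 bp downstream of its TSS, with 2 GTGGGAA sites in the central 200 bp. Maml2, a Mastermind coactivator, had a peak of 247 bp with 2 central cores in its first intron, 127642 bp from its own TSS and 21154 bp from that of Gm17571. Rbpj itself had a peak of 250 bp (chr5:53490705-53490954) 24677 bp downstream of a TSS, which held an AP-1 and a RUNX motif and no core. Dtx4, a ubiquitin ligase of the Deltex family, had 2 cores in a peak of 844 bp, both outside the central window. That peak was closer to the TSS of Mpeg1 (12179 bp) than to that of Dtx4 (28496 bp).

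Of 45 genes of TGF-beta and BMP signalling, 9 held 11 peaks, of which 3 had a central core. These 3 lay in Bmp6, a BMP ligand, in Ltbp1, which stores latent TGF-beta in the matrix, and in Ski, a corepressor of Smad proteins. The Ltbp1 peak of 352 bp (chr17:75277570-75277921), in intron 13, held RBPJ, AP-1 and RUNX motifs together. Ski had 2 cores and a TEAD motif in its first intron, 48887 bp downstream of a TSS. The named receptor genes held peaks without a central core: Eng, the endoglin coreceptor, had 2 peaks 7254 bp upstream and 6352 bp downstream of alternative starts, and Acvr1 and Acvr1b, both type I receptors, had 1 each. The Acvr1 peak was closer to the TSS of Gm17409 (14551 bp) than to that of Acvr1 (31605 bp). Smad3, the effector of TGF-beta receptors, had 2 peaks in its first intron, and the wider of them (1122 bp) held 3 cores away from its centre. Pmepa1, a feedback inhibitor of the pathway, had a peak with 2 RUNX motifs that was closer to Zbp1 (10690 bp) than to its own TSS (46576 bp).

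Of 56 matrix and integrin genes, 8 held 10 peaks, of which 5 had a central core. Col4a1 and Col4a2, which encode the main collagen chains of basement membranes and start next to each other, held 1 and 3 peaks. The Col4a1 peak of 203 bp (chr8:11249855-11250057) lay 29700 bp downstream in intron 2 and had 2 cores and 2 RUNX motifs, whereas the Col4a2 peaks had no central core. Of the latter, that in intron 41 was closer to the TSS of Rab20 (35768 bp) than to that of Col4a2 (130137 bp). Lama2, Nid1, Itga5 and Timp3 had 1 central core each, the Timp3 peak lying in Syn3 as well. Nid1 links laminin and collagen IV in basement membranes, Itga5 is a chain of the fibronectin receptor, and Timp3 inhibits matrix metalloproteases. The Lama2 peak (279 bp, intron 41) held RBPJ, AP-1 and RUNX motifs, and the Lamc1 and Col12a1 peaks held no core anywhere in the interval.

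Of 33 genes of pericyte identity and vessel signals, 3 held a peak each. Flt1, a VEGF receptor, had a peak of 174 bp with a central core in its first intron, 23271 bp downstream of a TSS (chr5:147702631-147702804). Nrp2, a coreceptor of VEGF and semaphorins, had a peak with an AP-1 motif and no core, and S1pr2, a receptor of sphingosine 1-phosphate, had a peak without core, AP-1, TEAD or RUNX motif. The share of this list, 2 of 23 among genes with at least 5 kb of suitable intron, was near the 7.34% of all such genes.

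Of 38 contractile and cytoskeletal genes, 6 held 10 peaks, of which 5 had a central core. Mrtfa, a coactivator of serum response factor that senses actin, had 4 peaks, and 2 of them, in its first intron 25744 and 17853 bp downstream, had a central core. The nearer of these (196 bp, chr15:81087133-81087328) also held 2 TEAD motifs. Its paralog Mrtfb had the narrowest peak of all (114 bp), with a core and a TEAD motif. Tpm4, a tropomyosin, had 2 central cores in a peak of 855 bp in intron 4, and Diaph1, a formin that builds actin filaments, had 1 core in its first intron and none in intron 26. The peak in intron 26 was closer to the TSS of Pcdhgc5 (32693 bp) than to that of Diaph1 (54157 bp). Myh9, a nonmuscle myosin, and Vcl, vinculin, had 1 and 2 cores away from the centre.

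Of 56 transcription factor genes, 9 held 10 peaks, of which 5 had a central core. Runx1, a regulator of mesenchymal and blood cells, had a peak of 214 bp (chr16:92732159-92732372) in intron 2 with GTGGGAA 4 bp from the centre. Tead1, the gene of a TEAD factor, had a peak of 296 bp in its first intron, 5094 bp downstream of a TSS, with 1 GTGGGAA. Gli2, an effector of Hedgehog signals, had 2 central cores in its first intron, 48932 bp downstream of a TSS. Ets1 had a peak without a core, and Prrx1, Nfix and Rreb1 (2 peaks) had theirs away from the centre, with 1 core in each interval. The Nfix peak was closer to the TSS of G430095P16Rik (7929 bp) than to that of Nfix (42460 bp).

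Of 55 genes of axon guidance and Wnt signalling, 7 held 8 peaks, of which 4 had a central core. Sema3a, a secreted repellent of axons and endothelial cells, had 2 central cores in a peak of 257 bp (chr5:13387711-13387967). Efnb2, the ephrin ligand of arterial and mural cells, had a peak of 351 bp with a core in its first intron, 7453 bp downstream of a TSS. Epha4, an ephrin receptor, had a core and a TEAD motif in a peak of 152 bp, and Daam1, a formin of Wnt signalling, had 1 central core. Ntn4 and Lrp6 had an AP-1 motif and no core, and the 2 peaks of Plxna2 had no central core. Of 22 circadian clock genes, Clock, Per2 and Hlf held 1 peak each. Only that of Per2, a repressor of the clock, had central cores (2, in a peak of 501 bp at chr1:91436348-91436848 in intron 9), the Hlf peak had 2 away from the centre, and the Clock peak had none.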

How the data were processed

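The peaks of 2 RBPJ ChIP-seq samples were used, and 8 samples of other antibodies or input were not analysed here. By the study's methods, reads were aligned to GRCm38 by the authors with Bowtie and freed of duplicates, peak calls of MACS2 and PeakRanger from both replicates were merged where they lay close together, and regions supported by several calls were kept. The peak files used here, as deposited by the authors, give a start and an end position in bp for each consensus peak, without score or signal, and both files were identical. Merging widens intervals and moves their centres. Read depth was not available here, so precision rests on the number of peaks alone. Start positions were taken as counting from 1.

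The members and the gene and motif lists were chosen with earlier results of these data known. TSSs were 54327 starts of protein-coding transcripts in GENCODE M21, and sequence came from the RefSeq copy of GRCm38.p6, whose chromosomes matched the list. Eligible intron was gene body that met the rule on position. Motifs were searched on both strands in 200 bp around the centre and in windows 5 kb away. Tests were two-sided exact McNemar, Fisher's exact and exact binomial tests with a threshold of 0.05. Intervals are 95% Clopper-Pearson, and for differences Newcombe intervals.

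Named hosts were the listed genes with a member (of lists with over 8, the 8 with most members, then alphabetical), the 6 hosts with most members, those of the 4 members with most cores, and those of the pairs with TGGGAA at both ends. Of these, 2 listed hosts are not reported here, although the counts of the lists include them. Genes nearest to the limits were named with their values known. Alternatives varied the TSS set, the exon rule, the width limits, the window, the motif, repeats, the comparison window and members per host. Scripts were tested on real windows 5 kb from the members with TGGGAA planted in some of them, and on a made sequence for pairs. Calculations used Python 3.11.15, numpy 2.4.6, scipy 1.17.1 and matplotlib 3.10.9.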

Additional observations from a re-analysis of the deposited data

How the results depend on the processing

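No paired analysis was possible because both RBPJ replicates carry the same list, and a fit with a replicate block could not be made (the McNemar tests pair each peak with its own window, not replicates). Leaving out either copy removes no data and shows nothing about stability (1040 members and 42.4% with a core by construction). A minimum width of 300 bp left 681 members, of which 34.9% had a central core, and 31 listed hosts. The core share was 27.3% in the central 100 bp, 64.1% over whole peaks, and 16.0% for GTGGGAA. The difference in the core between intronic and intergenic peaks changed sign without passing the threshold, to 0.131 points with gene 5′ ends as TSSs, 0.0231 with distance from the peak edge, 0.431 for widths under 1000 bp and 0.196 without chromosomes 4, 7, X and Y. The share of GTGGGAA sites pointing along the host was 48.8%, against 51.7% for TGGGAA. With gene 5′ ends as TSSs 35.8% of members were in the first intron, with a promoter limit of 500 bp 40.8% of hosts had a promoter peak, and with TGGGAA only 5 pairs had a gap of 14 bp. The causes were not tested. The comparison with windows 5 kb away passed under all alternatives run, with differences from 12.3 to 28.9 points, and that with promoter peaks from 9.76 to 26.8 points. The number of panel motifs past the threshold ran from 6 to 9.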
